A study of Mus musculus with 16 samples.

Results

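*Amn1*, *Klf7*, *Rnd3* and *Cnmd* are 4 of the 17003 genes in a table of liver transcript levels from mice with and without hepatocyte FGL1. They were chosen by their unadjusted genotype p-values, which in these same mice were among the smallest, while their transcripts are of low to middle abundance. They ranked 4 (*Amn1*), 8 (*Klf7*), 12 (*Rnd3*) and 13 (*Cnmd*) by that p-value among the 12770 genes tested, those whose mean reached 0.1 FPKM, a filter that all 4 passed. FPKM are fragments counted on a gene, scaled to its length and to the number of mapped fragments. Since the difference between genotypes chose the genes, it is described below and not tested.

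Bulk liver RNA was sequenced from 8 Fgl1 LWT and 8 Fgl1 LKO male littermates, aged 8 weeks, fed and on normal chow, with 1 library per mouse. All 16 mice carried floxed *Fgl1* alleles, made by crossing Fgl1tm1b(EUCOMM)Hmgu mice to FLPO mice. Fgl1 LWT mice had no CRE, and Fgl1 LKO mice carried CRE under the albumin promoter, so that recombination was directed to hepatocytes and the other liver cells kept the floxed gene. CRE itself was therefore present in 1 genotype only, and its effect cannot be told apart from that of the *Fgl1* loss. The labels give 8 mice per genotype, the methods give 7, and all 16 were used.

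*Fgl1*, the targeted gene, which encodes a fibrinogen-like protein secreted by hepatocytes, ranged from 157.8 to 1331 FPKM in Fgl1 LWT mice and from 13.23 to 89.99 FPKM in Fgl1 LKO mice. No gene had an adjusted p-value under 0.05 between genotypes (limma with Benjamini-Hochberg adjustment, 0 of 12770 genes, 0%), *Fgl1* included (limma adjusted p = 0.0725). An exact rank-sum test with the same adjustment also gave 0, which adds no support. With so few mice, its smallest possible p-value passes this adjustment only if many genes come near it. That p-value requires full separation of the genotypes, which 2 of the 12770 genes had. At an unadjusted limma p-value under 0.05 there were 895 genes (7.01%), of which 593 (4.64%) were higher and 302 (2.36%) lower in Fgl1 LKO mice. The 4 genes are among these, 1 higher and 3 lower, by the way they were chosen. The limma p-values weigh the difference between genotypes against the spread between mice. The summed FPKM of a library lay between 673153 and 786188, and read numbers are unknown. Defining hepatocyte genes had a summed level of 49545 to 84289 FPKM in Fgl1 LWT and 45113 to 67341 FPKM in Fgl1 LKO mice, and markers of Kupffer, sinusoidal endothelial, stellate and biliary cells were above 0 in these whole-tissue libraries.

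The 4 genes have separate roles. *Amn1* encodes a leucine-rich repeat protein whose yeast counterpart antagonizes the mitotic exit network, which lets dividing cells leave mitosis. *Klf7* encodes a Krüppel-like zinc finger transcription factor, best known from neurons and adipocytes, that binds GC-rich and CACCC sequences and activates the cell cycle inhibitor gene *Cdkn1a*. *Rnd3* encodes an atypical small GTPase that stays bound to GTP and opposes the kinase ROCK1, loosening actin stress fibres. *Cnmd* encodes chondromodulin, a membrane-bound BRICHOS domain protein of cartilage whose cleaved part restrains blood vessel growth.

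On GRCm39, the assembly that mm39 names, all 4 genes lie on the minus strand (GENCODE vM39 annotation). *Amn1* spans chr6:149058645-149090272 with 7 exons in its canonical transcript of 1466 bases. *Klf7* spans chr1:64068606-64161508 with 4 exons and 7724 bases, *Rnd3* chr2:51019347-51039189 with 5 exons and 2897 bases, and *Cnmd* chr14:79875120-79899615 with 7 exons and 1455 bases. *Klf7* overlaps 2 other annotated genes, the microRNA gene *Mir6899* on its own strand and the long non-coding *Gm13748* on the opposite strand. Neither is in the table. The overlap is one of whole gene spans, and whether exons overlap was not examined. Whether the counting used strand is not stated, and whether fragments of *Gm13748* entered the *Klf7* level was not tested.

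The sequence upstream of each gene's start is shown for a comparison of the genes' promoters, since they lie on 4 chromosomes and were measured together. The 250 bases before the RefSeq start were searched on both strands for 8 motifs that were chosen after the values had been seen. GENCODE places exons in part of this window (79 bases for *Amn1*, 164 for *Klf7*, 66 for *Rnd3* and 0 for *Cnmd*), and only the bases outside exons are printed, 5′ to 3′ on the minus strand. They are chr6:149090273-149090443 for *Amn1*, chr1:64160713-64160798 for *Klf7*, chr2:51039190-51039373 for *Rnd3* and chr14:79899624-79899873 for *Cnmd* (RefSeq sequence, matched at 1 place on GRCm39). Capitals mark a CACCC box (CCACCC, or GGGTGG where it lies on the other strand) or a GC box (GGGCGG).
Amn1: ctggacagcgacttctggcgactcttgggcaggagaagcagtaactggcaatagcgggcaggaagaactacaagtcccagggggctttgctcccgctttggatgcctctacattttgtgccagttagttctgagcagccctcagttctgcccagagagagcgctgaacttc
Klf7: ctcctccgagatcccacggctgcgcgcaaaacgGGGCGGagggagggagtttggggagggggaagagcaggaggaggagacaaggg
Rnd3: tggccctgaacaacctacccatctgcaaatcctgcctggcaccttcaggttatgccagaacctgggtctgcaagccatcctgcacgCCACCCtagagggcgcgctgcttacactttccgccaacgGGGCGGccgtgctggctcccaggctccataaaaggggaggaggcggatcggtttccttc
Cnmd: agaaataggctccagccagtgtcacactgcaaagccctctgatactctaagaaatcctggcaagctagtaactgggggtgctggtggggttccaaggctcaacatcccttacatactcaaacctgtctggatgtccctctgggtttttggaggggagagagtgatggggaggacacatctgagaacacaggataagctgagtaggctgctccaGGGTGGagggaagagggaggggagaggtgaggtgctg

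Some matches lay in bases that GENCODE assigns to an exon. For a pair of these, each found in a single gene here, 30 bases around the match are shown. The CACCC boxes of *Klf7* and the CCAAT box of *Rnd3*, also found in *Rnd3* alone, lie in such bases too and are not printed. The 30 bases are chr6:149090212-149090241 for *Amn1* and chr2:51039133-51039162 for *Rnd3*. Capitals mark the cAMP response element TGACGTCA of *Amn1*, from base -37 to -30 before the RefSeq start. In *Rnd3* they mark the TATA sequence TATAAA, from base -28 to -23.
Amn1: gtccaactctgTGACGTCAtttaggtttac
Rnd3: aaggctgggcgTATAAAgcggcgcggagag

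The CACCC box was found in 3 of the 4 windows, those of *Klf7* (3 matches), *Rnd3* (1) and *Cnmd* (1), against 28.1% of 32851 RefSeq mouse promoter windows of the same length. The GC box lay in the windows of *Klf7* and *Rnd3* (32.7% of all windows), CCAAT in that of *Rnd3* alone (33.8%), TATAAA in that of *Rnd3* (12.4%), and TGACGTCA in that of *Amn1* (1.5%). The E-box CACGTG (6.0% of all windows), the ETS core CCGGAAGT (2.9%) and the STAT sequence TTCNNNGAA (7.0%) were in none of the 4 windows. The windows of *Rnd3* (60.0% GC, 16 CpG), *Klf7* (59.2%, 13 CpG) and *Amn1* (56.4%, 11 CpG) held CpG pairs, while that of *Cnmd* had 54.0% GC and 0 CpG. Over all windows the median was 52.4% GC and 6 CpG. These letter matches are a description, and binding was not measured.

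*Amn1* was lower in Fgl1 LKO livers. In Fgl1 LWT replicates 1 to 8 it had 2.98, 3.86, 3.25, 2.31, 2.43, 2.89, 2.63 and 3.43 FPKM. In Fgl1 LKO replicates 1 to 8 it had 1.69, 1.9, 2.43, 2.6, 1.16, 1.78, 1.4 and 1.32 FPKM. Every Fgl1 LKO mouse was below the Fgl1 LWT median, but the groups overlapped, since Fgl1 LKO replicates 3 and 4 lay within the Fgl1 LWT range. Such a position, all 8 below the median, was held by 254 of the 12770 genes (1.99%). Fgl1 LWT mice had a mean of 2.97 ± 0.525 FPKM and Fgl1 LKO mice of 1.79 ± 0.515 FPKM (SD, n = 8 each), and the ratio of the latter to the former was 0.601. As the mean difference of log2(FPKM + 1), where 1 FPKM is added before taking the logarithm, this was -0.52 (SE 0.11). Such a difference understates the change of genes with few FPKM.

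*Rnd3*, which had the highest mean of the 4 in either genotype, was lower as well. Fgl1 LWT replicates 1 to 8 had 6.36, 3.96, 6.72, 5.71, 4.87, 4.24, 5.62 and 6.72 FPKM. Fgl1 LKO replicates 1 to 8 had 3.81, 3.02, 3.77, 2.06, 4.3, 2.43, 4.68 and 3.63 FPKM. Every Fgl1 LKO mouse was again below the Fgl1 LWT median, with Fgl1 LKO replicates 5 and 7 above the lowest Fgl1 LWT mouse, replicate 2. Fgl1 LWT mice had a mean of 5.53 ± 1.08 FPKM and Fgl1 LKO mice of 3.46 ± 0.899 FPKM (SD, n = 8 each), and the ratio of the latter to the former was 0.627, and the difference was -0.56 (SE 0.13) on the log2(FPKM + 1) scale.

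*Klf7* was the gene of the 4 that was higher in Fgl1 LKO livers. Its levels in Fgl1 LWT replicates 1 to 8 were 0.5, 0.57, 0.89, 0.92, 0.44, 0.66, 0.75 and 0.6 FPKM. Its levels in Fgl1 LKO replicates 1 to 8 were 1.19, 1.41, 1.61, 1.38, 0.63, 1.07, 1.07 and 1.18 FPKM. Of the Fgl1 LKO mice, 7 lay above the highest Fgl1 LWT mouse, and replicate 5, at 0.63 FPKM, was equal to the Fgl1 LWT median. All 8 lay above it in 395 of the 12770 genes (3.09%), of which *Klf7* is not 1. Fgl1 LWT mice had a mean of 0.666 ± 0.175 FPKM and Fgl1 LKO mice of 1.19 ± 0.294 FPKM (SD, n = 8 each), and the ratio of the latter to the former was 1.79, and the difference was 0.39 (SE 0.09) on the log2(FPKM + 1) scale.

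*Cnmd*, the least abundant over all 16 mice, was lower in Fgl1 LKO livers. In Fgl1 LWT replicates 1 to 8 its level was 0.85, 0.87, 0.7, 0.58, 0.64, 0.69, 0.91 and 1.28 FPKM. In Fgl1 LKO replicates 1 to 8 its level was 0.39, 0.3, 0.87, 0.44, 0.48, 0.34, 0.14 and 0.19 FPKM. Of the Fgl1 LKO mice, 7 lay below the lowest Fgl1 LWT mouse, and replicate 3 lay above the Fgl1 LWT median. Fgl1 LWT mice had a mean of 0.815 ± 0.222 FPKM and Fgl1 LKO mice of 0.394 ± 0.225 FPKM (SD, n = 8 each), and the ratio of the latter to the former was 0.483, and the difference was -0.39 (SE 0.09) on the log2(FPKM + 1) scale. In none of the 4 genes did the genotypes separate fully, which 2 of the 12770 genes did (0.0157%).

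**Figure D1:**
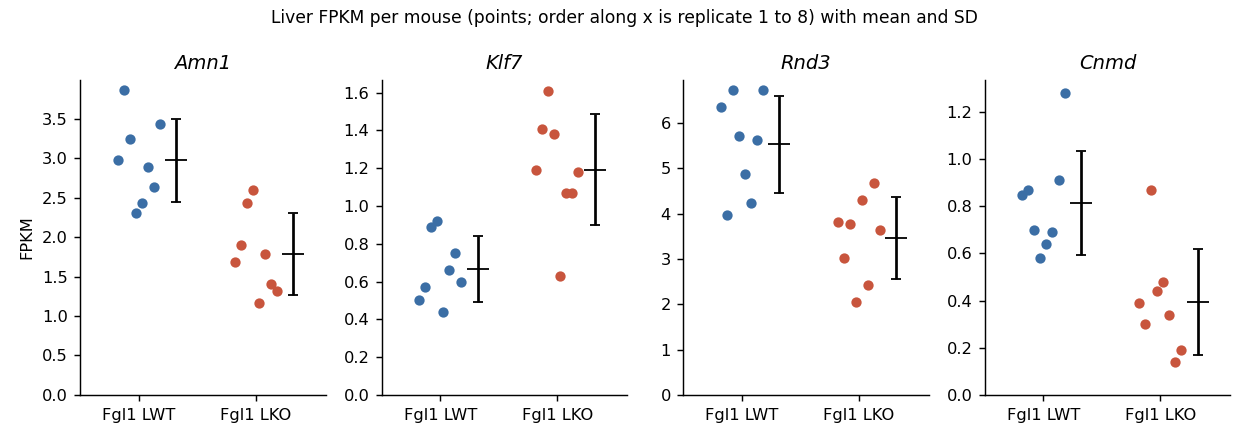
FPKM of *Amn1*, *Klf7*, *Rnd3* and *Cnmd* (vertical axes, linear from 0) in 8 Fgl1 LWT and 8 Fgl1 LKO mice. Each point is a mouse, and the bar gives the mean and SD of its genotype. *Klf7* has a single low Fgl1 LKO mouse (0.63 FPKM) and *Cnmd* a single high one (0.87 FPKM), while *Amn1* and *Rnd3* have 2 Fgl1 LKO mice each within the Fgl1 LWT range.

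Because FPKM are scaled to length, levels can be compared between genes. In Fgl1 LWT mice the order was *Rnd3*, *Amn1*, *Cnmd* and *Klf7*. The lowest *Rnd3* value (3.96 FPKM) was above the highest *Amn1* value (3.86 FPKM), and the lowest *Amn1* value (2.31 FPKM) was above the highest *Cnmd* value (1.28 FPKM), while *Cnmd* and *Klf7* overlapped. In Fgl1 LKO mice the order was *Rnd3*, *Amn1*, *Klf7* and *Cnmd*, and every neighbouring pair overlapped. Among the 16139 genes above 0 in at least 1 mouse, the mean level over all mice stood at percentile 58.8 for *Rnd3*, 48.4 for *Amn1*, 37.1 for *Klf7* and 33.4 for *Cnmd*. The spread within a genotype, as SD over mean, lay between 17.7% (*Amn1* in Fgl1 LWT mice) and 57.1% (*Cnmd* in Fgl1 LKO mice). It was 28.9% for *Amn1* in Fgl1 LKO mice, 26.2% and 24.6% for *Klf7* in Fgl1 LWT and Fgl1 LKO mice, and 27.2% for *Cnmd* in Fgl1 LWT mice.

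At low levels an FPKM value stands for few fragments. For each gene, the value of a single fragment was estimated as the median of the lowest values above 0 of genes of like length (within 10%) that were at 0 in 4 to 13 mice. It was 0.05 FPKM for *Amn1* and *Cnmd*, 0.02 FPKM for *Rnd3* and 0.01 FPKM for *Klf7*. On this estimate the lowest *Cnmd* value, 0.14 FPKM in Fgl1 LKO replicate 7, corresponded to 2.8 fragments, and the *Cnmd* means to 16.3 fragments in Fgl1 LWT and 7.88 in Fgl1 LKO mice. The lowest values of the other genes were equivalent to 23.2 (*Amn1*), 44 (*Klf7*) and 103 (*Rnd3*) fragments. The *Cnmd* values of single Fgl1 LKO mice therefore rested on the fewest fragments and had the least precision.

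The mouse numbers in the labels fall into 4 runs, which the labels do not call batches. The run 36 to 38 holds 3 Fgl1 LWT mice and no Fgl1 LKO mouse. The other runs are 48 to 55 (1 Fgl1 LWT and 3 Fgl1 LKO mice), 60 to 64 (2 and 3) and 69 to 72 (2 and 2). *Rnd3* had a similar ratio of Fgl1 LKO to Fgl1 LWT means in each of the latter, at 0.619, 0.643 and 0.673, and *Klf7* had ratios of 1.53, 1.87 and 1.67. The ratios of *Amn1* were 0.869, 0.694 and 0.449, and those of *Cnmd* 0.897, 0.632 and 0.151, lowest in run 69 to 72. The ratios of run 48 to 55 rest on 1 Fgl1 LWT mouse and on the placing of mouse 55 (Fgl1 LKO replicate 3). Mouse 55 lies as far from mouse 50 as from mouse 60 and had the highest *Cnmd* value of its genotype (0.87 FPKM). No test was made within runs, which hold 1 to 3 mice of a genotype. With the run as a term in the limma fit, the differences were -0.46 for *Amn1*, -0.53 for *Rnd3*, 0.35 for *Klf7* and -0.40 for *Cnmd* on the log2(FPKM + 1) scale.

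**Figure D2:**
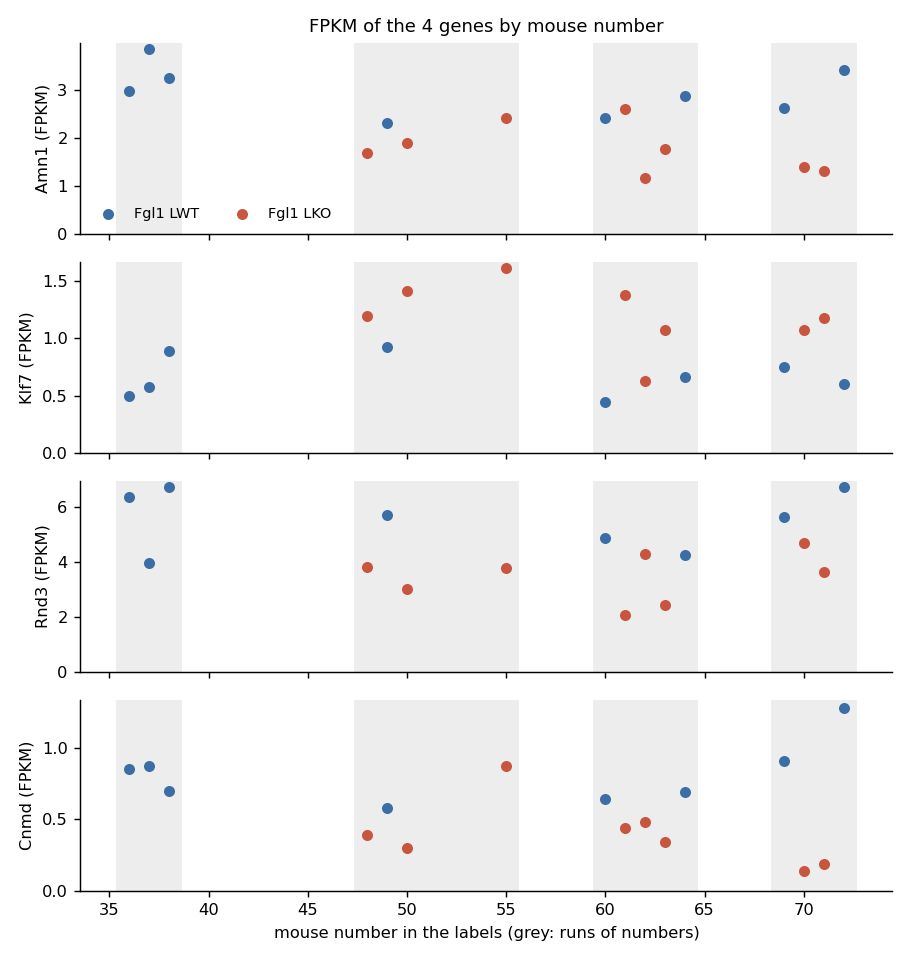
FPKM of the 4 genes (vertical axes, from 0) against the mouse number in the labels (horizontal axis), with runs of numbers in grey and a point for each mouse. The gap between genotypes in *Cnmd* is widest in run 69 to 72 (Fgl1 LKO at 0.14 and 0.19 FPKM, Fgl1 LWT at 0.91 and 1.28 FPKM). In run 48 to 55 the Fgl1 LKO mice of *Cnmd* lie on either side of the single Fgl1 LWT mouse (0.58 FPKM). Only mouse 55 (0.87 FPKM), as far from run 60 to 64 as from mouse 50, lies above it.

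Through the p-value, the choice of the genes drew on the size of their spread within a genotype, not on its relation to other genes. That relation was examined on deviations of log2(FPKM + 1) from the genotype mean over the 16 mice. Of the 10 relations among the 4 genes and with *Fgl1*, none passed a permutation test within genotypes after adjustment. The closest was between *Amn1* and *Fgl1* (Pearson r = -0.67, permutation p = 0.00593, adjusted p = 0.0593, Spearman coefficient = -0.63, permutation p = 0.0138, adjusted p = 0.138). Mice with more *Fgl1* than others of their genotype tended to have less *Amn1*, with r = -0.48 in Fgl1 LWT and -0.86 in Fgl1 LKO mice, and r = -0.63 without the 2 mice farthest from the median of *Fgl1*. The sign of this relation was opposite to that of the difference between genotypes, in which *Fgl1* and *Amn1* were both lower in Fgl1 LKO mice. Fgl1 LWT replicates 5 and 7, with the most *Fgl1*, also had their genotype's highest acute-phase scores (mean log2(FPKM + 1) of 9 genes such as *Saa1*), 11.58 and 11.67. *Amn1* had r = -0.54 with that score (permutation p = 0.0257, adjusted p = 0.257, Spearman coefficient = -0.51, permutation p = 0.0452, adjusted p = 0.452). Its part in the relation of *Amn1* and *Fgl1* was not tested. *Amn1* and *Cnmd* had r = 0.58 (permutation p = 0.0296, adjusted p = 0.148, Spearman coefficient = 0.51, permutation p = 0.0631, adjusted p = 0.315), and r = 0.41 without 2 mice. *Klf7* and *Rnd3* had r = -0.13 (permutation p = 0.671, adjusted p = 0.832, Spearman coefficient = -0.09, permutation p = 0.759, adjusted p = 0.977).

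The genes were also set against 10 lists of marker genes, which were compared after the values had been seen, so that 40 relations were computed and none passed after adjustment. *Klf7* had its highest correlation with sinusoidal endothelium, whose list holds the scavenger receptor gene *Stab2* and the lymphatic and sinusoidal marker *Lyve1*. The correlation with the mean log2(FPKM + 1) of its 6 genes was r = 0.75 (permutation p = 0.00262, adjusted p = 0.101) and Spearman coefficient = 0.63 (permutation p = 0.0138, adjusted p = 0.208). It was r = 0.42 in Fgl1 LWT and 0.96 in Fgl1 LKO mice, and r = 0.51 without Fgl1 LKO replicates 3 and 5, the mice farthest from the median of the score. Fgl1 LKO replicate 5, the mouse with the lowest *Klf7* level of its genotype, also had the lowest endothelial score of its genotype. With the stellate cell list, *Klf7* had r = 0.62 (permutation p = 0.0132, adjusted p = 0.176) and Spearman coefficient = 0.62 (permutation p = 0.0156, adjusted p = 0.208). This r was 0.60 in Fgl1 LWT mice, 0.64 in Fgl1 LKO mice and 0.63 without the 2 mice farthest from the median. Between genotypes the endothelial list did not move in 1 direction. Of its 6 genes, 4 were higher and 2 lower in Fgl1 LKO mice, 0 had an unadjusted limma p-value under 0.05, and the summed level ranged from 46.32 to 102.7 FPKM in Fgl1 LWT and from 30.89 to 117.08 FPKM in Fgl1 LKO mice. With the endothelial score as a covariate the difference of *Klf7* was 0.38, against 0.39 without. *Amn1* varied most with the neutrophil list (r = -0.66, permutation p = 0.00507, adjusted p = 0.101, Spearman coefficient = -0.66, permutation p = 0.00575, adjusted p = 0.208), and r was -0.63 without 2 mice. The score of this list is the mean of only 2 of its 4 genes, *S100a8* and *S100a9*, since the others were below the filter. The list's summed level was 0.66 to 31.92 FPKM in Fgl1 LWT and 3 to 25.96 FPKM in Fgl1 LKO mice.

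**Figure D3:**
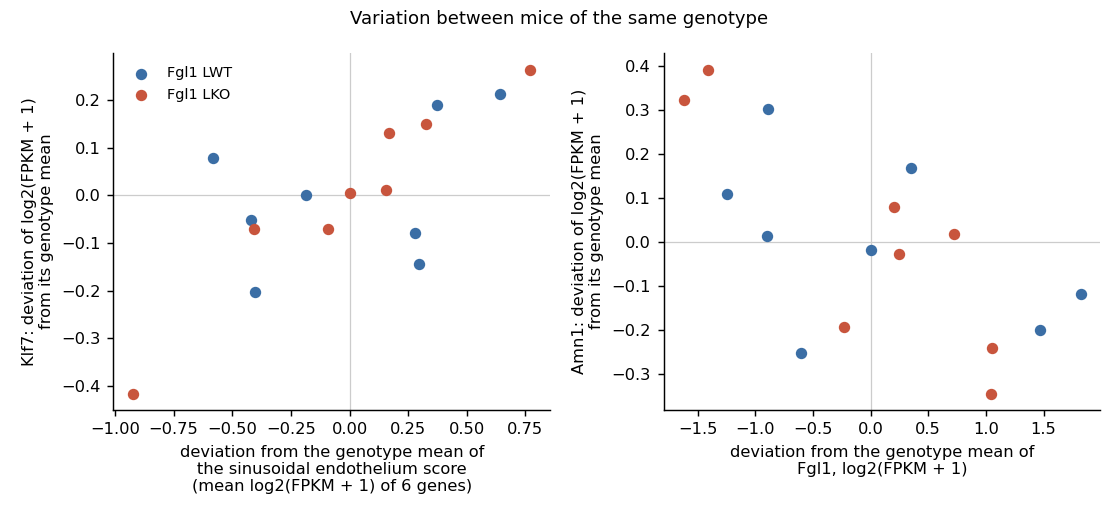
Deviations from the genotype mean of log2(FPKM + 1) over 16 mice, with *Klf7* against the mean of 6 sinusoidal endothelium genes (left) and *Amn1* against *Fgl1* (right). Each point is a mouse. The left relation (r = 0.75) includes an Fgl1 LKO mouse far to the lower left and has r = 0.51 without the 2 most distant mice, and the right relation is negative (r = -0.67). Neither passed after adjustment.

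Of the 6 markers of Kupffer cells and macrophages, 0 had an adjusted limma p-value under 0.05 and 2 an unadjusted one. All 6 had a higher mean in Fgl1 LKO mice, as did 7126 of the 12770 genes tested. The 2 were the complement receptor gene *Vsig4*, by 0.37 on the log2(FPKM + 1) scale, and the macrophage gene *Adgre1*, by 0.39. The list's summed level was 40.82 to 80.81 FPKM (median 63.4) in Fgl1 LWT and 52.05 to 107.02 FPKM (median 79.975) in Fgl1 LKO mice. With the mean of this list as a covariate, the differences were 0.32 for *Klf7*, -0.47 for *Amn1*, -0.66 for *Rnd3* and -0.38 for *Cnmd*, of the same sign as without it. The estimates of stellate cell genes were higher in Fgl1 LKO mice in 6 of 6 cases and those of bile duct genes in 5 of 5, with 0 at an unadjusted p-value under 0.05 (limma). The part of these cell types in the differences of the 4 genes was not tested beyond the covariate fits. In bulk tissue, fewer cells of a type and less RNA per cell cannot be told apart, and which liver cells held the 4 transcripts was not measured.

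**Figure D4:**
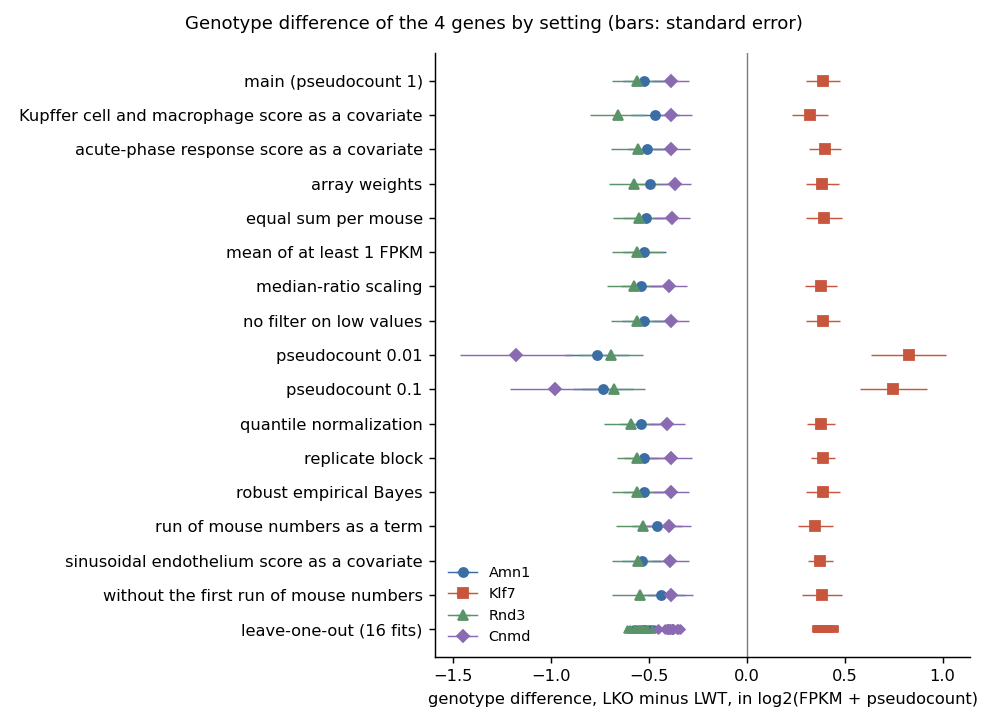
Difference between genotypes of the 4 genes, as Fgl1 LKO minus Fgl1 LWT in log2(FPKM + pseudocount) (horizontal axis), under each setting of the limma fit (vertical axis). Symbols are estimates and bars standard errors, and the lowest line holds the 16 fits that leave out 1 mouse. All settings keep *Klf7* above 0 and *Amn1*, *Rnd3* and *Cnmd* below 0, with larger values at pseudocounts of 0.1 and 0.01, where *Cnmd* is at -0.98 and -1.18. The choice of the genes by their p-values in these mice made stable signs likely. A mean of at least 1 FPKM removes *Klf7* and *Cnmd*.

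For each gene, the 3 genes whose deviations resembled its own most over the 16 mice are given as a description. They were picked as the highest correlations among all genes tested, so high values arise from the choice, and they were not tested. For *Amn1* they were *Sub1*, a transcription coactivator gene (r = 0.90), *Acad9*, needed to assemble respiratory complex I (r = 0.89), and *Ddt*, D-dopachrome tautomerase (r = 0.88). For *Klf7* they were *Tspan7*, a tetraspanin (r = 0.89), *Coro2b*, an actin-binding coronin (r = 0.86), and *Aard* (r = 0.86). For *Cnmd* they were *Tmem242* (r = 0.86), *5430403G16Rik* (r = 0.85) and the methyltransferase gene *Smyd3* (r = 0.83). *Rnd3* had lower values, with *Tmem273* (r = 0.76), the DNA helicase gene *Recql* (r = 0.72) and the mitochondrial ornithine carrier gene *Slc25a2* (r = 0.71). The mean of *Slc25a2*, 0.13 FPKM in either genotype, lay near the filter of 0.1 FPKM. None of these 12 genes had an unadjusted limma p-value under 0.05 between genotypes. *Sub1* had 8.90 ± 1.05 FPKM in Fgl1 LWT and 8.68 ± 1.40 FPKM in Fgl1 LKO mice (SD, n = 8 each), and *Tspan7* had 9.46 ± 1.98 and 9.48 ± 2.90 FPKM (SD, n = 8 each).

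The closest relatives of the 4 genes were set beside them. *Klf6*, a paralogue of *Klf7*, had 1.80 ± 0.366 FPKM in Fgl1 LWT and 1.89 ± 0.271 FPKM in Fgl1 LKO mice (SD, n = 8 each), a difference of 0.05 (SE 0.08, limma adjusted p = 0.893). *Rnd1*, which like *Rnd3* encodes a GTP-bound Rnd protein, had 6.52 ± 1.70 and 6.65 ± 2.24 FPKM (SD, n = 8 each, -0.02, SE 0.20, limma adjusted p = 0.986). *Rnd2* had 9.71 ± 2.20 and 10.4 ± 3.27 FPKM (SD, n = 8 each, 0.06, SE 0.16, limma adjusted p = 0.936). The signs of these 3 small differences turned under some settings. *Tnmd*, the paralogue of *Cnmd*, is not in the table used here. A p-value above the threshold does not show that these genes were alike in the 2 genotypes.

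The wider families and pathways reported here hold 85 genes in 6 lists, of which 78 are in the table and 55 passed the filter. None had an adjusted p-value under 0.05 (limma), and 5 of the 55 (9.09%) had an unadjusted one, 3 higher and 2 lower in Fgl1 LKO mice, beside 7.01% of all genes tested. Their median difference was -0.0016 on the log2(FPKM + 1) scale, against 0.01 over all genes tested. Of 17 Krüppel-like and SP factor genes tested, 1 had an unadjusted p-value under 0.05, *Sp5* (0.508 ± 0.112 to 0.680 ± 0.202 FPKM from Fgl1 LWT to Fgl1 LKO, SD, n = 8 each, limma adjusted p = 0.696). Of 3 KLF7 target genes tested, *Cdkn1a*, which encodes the cell cycle inhibitor p21, had 12.3 ± 8.96 FPKM in Fgl1 LWT and 18.9 ± 7.81 FPKM in Fgl1 LKO mice (SD, n = 8 each, 0.77, SE 0.35, limma unadjusted p = 0.0397, adjusted p = 0.696). The other 2, named after their values were seen, did not pass at an unadjusted p-value under 0.05, with *Cdkn1b*, the gene of the related inhibitor p27, at -0.02 (SE 0.08) and the neurotrophin receptor gene *Ntrk2* at 0.08 (SE 0.10). With the Kupffer score as a covariate, *Cdkn1a* was at 0.55 (SE 0.38).

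*Amn1* was set beside 18 F-box leucine-rich genes, whose products carry similar repeats. Of these, *Skp2*, which encodes a ubiquitin ligase subunit that targets cell cycle inhibitors (0.556 ± 0.0796 to 0.715 ± 0.170 FPKM, SD, n = 8 each), and *Fbxl4* (8.12 ± 0.781 to 7.00 ± 1.35 FPKM, SD, n = 8 each) had unadjusted p-values under 0.05, in opposite directions, and both had a limma adjusted p of 0.696. Of 11 orthologues of mitotic exit network genes, 0 had such a p-value, with 7 higher and 4 lower.

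*Cnmd* belongs to the BRICHOS genes, of which 3 others were tested and 0 had an unadjusted p-value under 0.05 (limma). It is best known from cartilage, and of 13 chondrocyte genes in the table only 3 reached the filter of 0.1 FPKM. Of these, *Sox5*, a transcription factor gene of cartilage that other tissues also express, had 2.57 ± 0.737 FPKM in Fgl1 LWT and 1.59 ± 0.754 FPKM in Fgl1 LKO mice (SD, n = 8 each, -0.49, SE 0.16, limma unadjusted p = 0.00824, adjusted p = 0.696). The other 2 did not pass at an unadjusted p-value under 0.05 and had opposite signs, with *Sox6* at -0.07 (SE 0.07) and *Sox9*, which bile ducts also express, at 0.11 (SE 0.15). These were named after their values were seen.

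**Figure D5:**
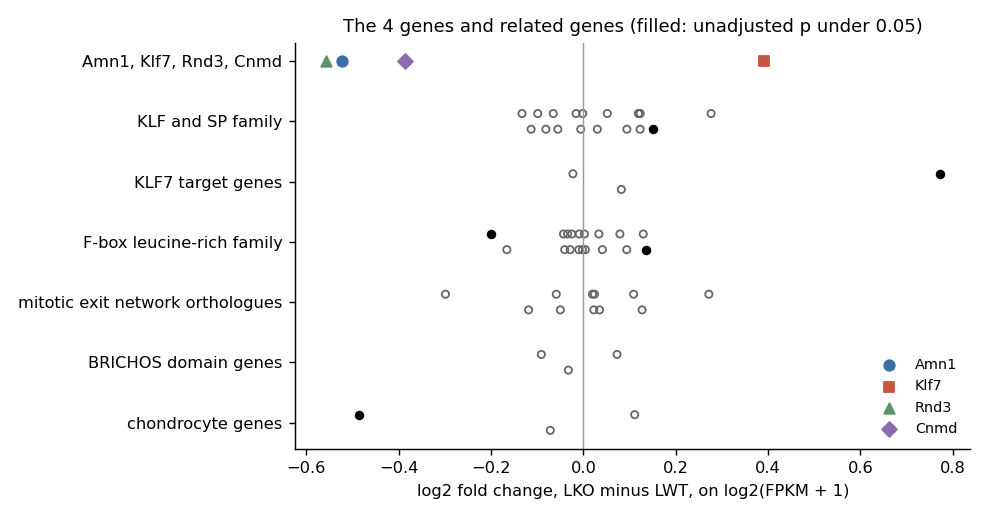
Difference between genotypes (horizontal axis, Fgl1 LKO minus Fgl1 LWT on log2(FPKM + 1)) for the 4 genes in the top line and for the tested genes of 6 related lists below it. Filled points have an unadjusted limma p-value under 0.05 (5 of 55 genes), and none has an adjusted one.

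Neighbouring genes on the chromosome were compared last. *Amn1* lies 5.971 kb from *Etfbkmt*, a mitochondrial methyltransferase gene (22.7 ± 6.92 to 32.4 ± 16.4 FPKM from Fgl1 LWT to Fgl1 LKO, SD, n = 8 each, limma adjusted p = 0.785), and 120.5 kb from *Resf1*. *Resf1*, a regulator of retroelement silencing, had 4.17 ± 1.73 FPKM in Fgl1 LWT and 2.54 ± 0.488 FPKM in Fgl1 LKO mice (SD, n = 8 each, -0.49, SE 0.17, limma unadjusted p = 0.0105, adjusted p = 0.696). Its difference was -0.21 (SE 0.12) with a term for the run of mouse numbers, -0.18 (SE 0.13) after leaving out the run 36 to 38, which holds Fgl1 LWT mice only, and -0.29 (SE 0.17) with the Kupffer score as a covariate. *Cnmd* lies 2.469 kb from *Sugt1*, whose level was 6.98 ± 0.872 and 6.90 ± 0.380 FPKM (SD, n = 8 each, limma adjusted p = 0.980). Its neighbour on the other side, *Pcdh8*, was below the filter. The neighbours of *Klf7*, *Fastkd2* at 274.6 kb and *Creb1* at 410.2 kb, differed by -0.02 and -0.04, and *Mmadhc*, 832.5 kb from *Rnd3*, by -0.04 on the log2(FPKM + 1) scale. *Tas2r134*, on the other side of *Rnd3* at 478.3 kb, is not in the table used here.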

How the data were processed

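The authors sequenced liver RNA as strand-specific mRNA libraries on the DNBSEQ platform, from 8 mice of each genotype. The labels name HISAT, Bowtie2 and mm39, and the tools' versions, the way fragments were counted and the annotation are not given in the sources used here. The authors deposited FPKM for 17003 genes, rounded to 2 decimals and written with decimal commas, and these were read as numbers without further scaling. FPKM already carry the authors' scaling for length and library size. The read number is unknown, so counting error cannot be given.

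Groups follow the genotype labels of the 16 samples, and no column was left out. A pseudocount of 1 was added, log2 was taken, and the 12770 genes whose mean reached 0.1 FPKM were compared with limma 3.58.1 in R 4.3.3 (lmFit, eBayes with trend, two-sided, Benjamini-Hochberg, threshold 0.05). The step was tested on simulated data. Relations across mice were tested, two-sided, with 100000 permutations within genotypes. The rest was done in Python 3.11.15 (pandas 2.3.3, numpy 2.4.6, scipy 1.17.1).

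The 4 genes, the lists and the rule for named genes were chosen with earlier results of these data known. The rule names the 4 genes, *Fgl1*, up to 3 genes of each related list with the smallest unadjusted p under 0.05, the paralogues, the 3 most alike genes and the nearest protein-coding neighbours. Some results that it names are not reported here. Alternatives were other pseudocounts, filters and scalings, array weights, robust empirical Bayes, a rank-sum test, the run of mouse numbers, a replicate block, leaving out mice and, added after the data were seen, 3 marker scores as covariates.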

Additional observations from a re-analysis of the deposited data

Results flagged for a closer look

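Of 40 groups of 8 mice searched on the log2(FPKM + 1) scale, 2 held a mouse far from the others, and chance gives about 2 (1 in 20). *Rnd1* was at 2.16 FPKM in Fgl1 LKO replicate 8, where the next mouse of that genotype had 5.19 FPKM. *Rnd2* was at 14.91 FPKM in Fgl1 LWT replicate 7, where the next had 9.77 FPKM. No mouse stood apart by this rule on that scale in *Amn1*, *Klf7*, *Rnd3* or *Cnmd*. The scale compresses low values, and flags can differ on FPKM itself. In *Cnmd*, Fgl1 LKO replicate 3 had 0.87 FPKM, where the next mouse of that genotype had 0.48 FPKM.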

How the results depend on the processing

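*Klf7* kept its positive difference and *Amn1*, *Rnd3* and *Cnmd* their negative ones under every alternative that could be fitted. Because the genes were chosen by their small p-values in these mice, stable signs were likely and are no independent support. Filters, robust empirical Bayes and the block by construction do not change the estimate of a gene that is kept. A filter of at least 1 FPKM removed *Klf7* and *Cnmd*. Leaving out each mouse in turn gave -0.58 to -0.47 for *Amn1*, 0.35 to 0.45 for *Klf7*, -0.61 to -0.48 for *Rnd3* and -0.45 to -0.34 for *Cnmd* on the log2(FPKM + 1) scale. Smaller pseudocounts gave larger values by their construction. At 0.1 FPKM, *Klf7* was at 0.75 and *Cnmd* at -0.98, and at 0.01 FPKM, *Amn1* was at -0.76, *Klf7* at 0.83 and *Cnmd* at -1.18. The number of genes with an adjusted p-value under 0.05 (limma) rose from 0 to 1, *Fgl1*, with an equal sum per mouse, with a term for the run, after leaving out the mice of the first run, with the replicate block, and with the endothelial or the acute-phase score as a covariate. The cause was not tested. It was 0 in the other settings, and 0 of the related genes passed in any. Whether same replicate numbers mark paired mice cannot be decided from these values. Of 8 same-numbered pairs, 3 had a correlation of deviations over 0.1 (from -0.16 to 0.45). The mean correlation was 0.073 in same-numbered pairs and -0.0098 in pairs of different numbers. With the block the differences of *Amn1*, *Klf7*, *Rnd3* and *Cnmd* were the same (-0.52, 0.39, -0.56 and -0.39) by construction, since each block holds 1 mouse of each genotype. Their standard errors were 0.10, 0.06, 0.11 and 0.11 with the block, against 0.11, 0.09, 0.13 and 0.09 without it. With the block, 925 genes had an unadjusted limma p-value under 0.05, against 895. That count was 530 with the Kupffer score as a covariate and 624 to 1233 when 1 mouse was left out.

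Small differences of genes set beside the 4 turned sign, for causes that were not tested. With a term for the run, *Creb1* was at 0.0073, *Fastkd2* at 0.0010, *Rnd1* at 0.034, *Rnd2* at -0.016 and *Sugt1* at 0.063. Without the first run, *Creb1* was at 0.027, *Rnd1* at 0.11 and *Sugt1* at 0.078. With the Kupffer score, *Creb1* was at 0.0057, *Fastkd2* at 0.0068, *Klf6* at -0.0044, *Rnd1* at 0.11 and *Sugt1* at 0.042. With the acute-phase score *Rnd1* was at 0.011, and with array weights *Rnd1* was at 0.095 and *Sugt1* at 0.0049. Leaving out 1 mouse gave -0.046 to 0.013 for *Fastkd2*, -0.088 to 0.16 for *Rnd1*, -0.033 to 0.15 for *Rnd2* and -0.028 to 0.037 for *Sugt1*.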
